A study of Drosophila melanogaster with 4 samples.

Results

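Along the gene pairs *elB*-*noc* and *tsh*-*tio*, CBP occupancy at the strong regions close to the genes was lower in *gd7* than in wild-type embryos. It differed by -1.60 on the log2 scale at *noc* and -1.52 at *tsh*. At *tio* it differed by -1.45 at a region 4520 bp from the start site. The strong wild-type regions at *elB* and 940 bp from the *tio* start site were not listed in *gd7*. The strongest region of either domain, near *CG11629* between *tsh* and *tio*, differed by -0.87. In the whole list, 91.2% of shared regions with a wild-type value of at least 3.5 were also lower in *gd7*, with a median of -0.88. The wild-type value that marks a region as strong is also subtracted in its difference. Of the 13 weaker wild-type regions, 8 had a higher value in *gd7*, 1 had nearly the same value, and 4 had no listed *gd7* region. The increases reached 0.62, or 1.00 where a wild-type region was set against a *gd7* peak 840 bp away that was already paired. At some others of the 8, too, the *gd7* centre lay outside the wild-type region. A weak region that fell in *gd7* can drop below the cut-off and out of the comparison, so the count of higher ones is no measure of direction. The regions described were selected on position and on the CBP signal itself: they are all CBP-bound regions of either genotype that touch one of 2 stretches of chromosome arm 2L on release 5 of the *Drosophila melanogaster* genome, from 14400000 to 14520000 (*elB*, *noc*) and from 21800000 to 22050000 (*tsh*, *tio*). The stretches are 120 kb and 250 kb long and are called the *elB*-*noc* and *tsh*-*tio* domains. They hold 21 of the 1939 regions listed for *gd7* (11 and 10) and 19 of the 3013 regions listed for wild-type (10 and 9). A region is listed only where its CBP signal belonged to the highest 5% of values of that genotype, and the gene pairs were picked with results of these data in view. The values are therefore a description, with no test.

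The measurements are ChIP-seq (immunoprecipitation of chromatin, then sequencing of its DNA) with a rabbit antibody against *Drosophila* CBP in whole embryos of 2 to 4 hours. The *gd7* embryos came from homozygous *gd7* mothers and lack Dorsal in their nuclei, so that all of their cells take on a dorsal ectoderm fate. The wild-type embryos came from *w1118* mothers and hold mesoderm, neuroectoderm and dorsal ectoderm. Pooled immunoprecipitations gave 1 CBP library per genotype, next to 1 input library each, so none of the differences below could be checked in replicates. The value of a region is its log2 enrichment of ChIP over input, and a difference of 1 on this scale is a 2-fold difference. The lowest listed value was 1.93 in *gd7* and 1.88 in wild-type. The lists hold no read counts, so no counting interval can be given for a region.

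CBP, the product of *nejire*, is a co-activator and histone acetyltransferase that is brought to enhancers and promoters by sequence-specific factors. Dorsal is the Rel-family factor whose nuclear gradient patterns the dorsal-ventral axis, and *gd* encodes a maternal serine protease of the cascade that produces the Toll ligand. *elB* (*elbow*) and *noc* (*no ocelli*) are neighbouring paralogues that encode zinc finger co-repressors of the NET family and act in tracheal branching, in the eye-antennal disc and in the appendages. *tsh* (*teashirt*) encodes a zinc finger protein that specifies trunk identity together with the Hox proteins, and *tio* (*tiptop*) is its paralogue, which can replace *tsh* in part. Both *tsh* and *tio* can also induce eye tissue when misexpressed.

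The genes of each pair lie far apart, with other genes between them. In the current gene table, made for release 6 and used only for names and order, 3 protein-coding genes lie between *elB* and *noc* (*Pburs*, which encodes a bursicon subunit, the cuticle protein gene *Cpr35B*, and *CG15283*), and 7 lie between *tsh* and *tio*, *CG11629* being the first of them. In the study's assignment of each wild-type region to its nearest start site, *elB* was nearest to 1, *noc* to 2, *Cpr35B* to 2 and *CG15283* to 5 of the 10 regions of the first domain. In the second domain *tsh* was nearest to 5, *CG11629* to 2 and *tio* to 2 of the 9 regions. The labels of the domains thus name the nearest gene for 3 of 10 and 7 of 9 wild-type regions, and the gene that a distal region acts on is not known from these data.

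CBP at *elB* was strong in wild-type and not listed in *gd7*. The wild-type region, from 14409500 to 14410620, had a value of 3.90 and was 1120 bp long, with its centre 198 bp from a start site of *elB*. Its rank was 65 among all wild-type regions. No *gd7* region was listed nearer than the one starting at 14429835. Unless the *gd7* signal was missed for its length (regions had to reach 200 bp), it was lower than in wild-type by more than 1.97 on the log2 scale, or 3.91-fold. In these whole embryos, a lower signal in every cell and a signal in fewer cells cannot be told apart.

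At the *noc* start site, CBP was lower in *gd7* but still present. The region from 14490070 to 14491120 in *gd7* had 2.62, and the wild-type region, from 14490175 to 14491120, had 4.22. The difference was -1.60 on the log2 scale, so the *gd7* enrichment was 0.330 times that of wild-type. In wild-type it held rank 21 of 3013 regions, and in *gd7* rank 846 of 1939. This was the largest decrease among the shared regions of both domains, yet the footprint was nearly the same, at 1050 bp in *gd7* and 945 bp in wild-type. The centre lay 92 bp from the start site in *gd7* and 337 bp from it in wild-type.

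Around *noc* the 2 genotypes otherwise had no region in common. In *gd7*, 3 further regions lay on the side towards *elB*, with values of 2.09 at 7197 bp, 2.35 at 4537 bp and 2.44 at 1632 bp from the start site. On the far side of *noc*, *gd7* had a region with 1.99 at 18125 bp and one with 2.33 at 22080 bp. In wild-type, the only region besides the one at the start site was a short one of 245 bp, 6978 bp beyond it, with 2.76. The strongest of these *gd7* regions stood 0.56 above the lowest wild-type value, so a wild-type signal just under the cut-off would make a difference of no more than that at any of them.

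Between *elB* and *noc*, a group of regions nearest to *Cpr35B* and *CG15283* carried CBP in both genotypes, and here no difference between overlapping regions was below -0.02. The strongest, centred at position 14445795 in both lists, had 3.35 in *gd7* and 3.28 in wild-type, a difference of 0.07. The region at 14443940 in wild-type had 2.87, against 2.85 at the overlapping *gd7* region. Both pairs were thus nearly alike, while the start site of *noc*, 45.1 kb from the stronger of them, differed by -1.60.

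Closer to *Cpr35B*, CBP was higher in *gd7*. The region from 14435470 to 14436555 in *gd7* had 3.08, and the wild-type region within it had 2.46, a difference of 0.62. The region from 14429835 to 14431970 in *gd7* was 2135 bp long and had 2.52, whereas the wild-type region it overlapped was 210 bp long and had 2.27. For this pair the *gd7* centre lay outside the wild-type region, so the values belong to points 385 bp apart. A further *gd7* region between these and *CG15283*, from 14439775 to 14440090, had 2.03 and no wild-type counterpart.

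Next to the strongest region between *elB* and *noc*, the wild-type list was more finely divided. A wild-type region from 14446460 to 14446810 with 2.35 fell inside the 1470 bp *gd7* region with 3.35, and so its difference of 1.00, just under the 2-fold limit, compares it with a peak 840 bp away that is already paired with another wild-type region. The wild-type regions centred at 14444955 and 14447807 had 1.94 and 1.96 and no *gd7* region. They stood only 0.01 and 0.03 above the lowest *gd7* value, so their absence from the *gd7* list says nothing of a change in CBP.

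**Figure D1:**
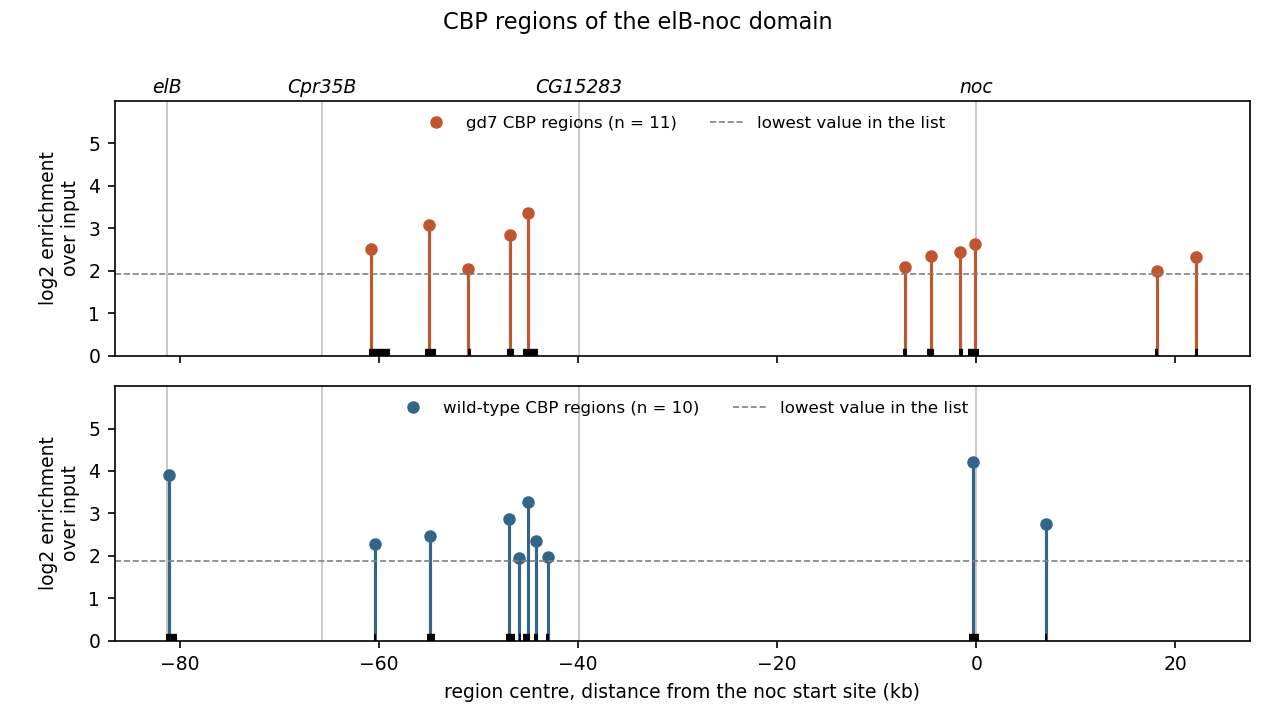
CBP regions of the *elB*-*noc* domain in *gd7* (top) and wild-type (bottom). The x axis is the distance of the region centre from the *noc* start site in kb and the y axis the log2 enrichment over input; stems are regions, black bars on the axis their extent, vertical lines the start sites of the named genes, and dashed lines the lowest value listed for each genotype. The wild-type stems at *elB* (3.90) and *noc* (4.22) are the highest of the domain, whereas in *gd7* the highest stem (3.35) lies between the genes.

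At *tsh*, CBP at the start site was lower in *gd7*. The region from 21828380 to 21828730 in *gd7* had 2.12, and the wild-type region from 21828100 to 21828730 had 3.64, with its centre 110 bp from a start site. The difference was -1.52, an enrichment in *gd7* 0.349 times that of wild-type. The region was also shorter in *gd7*, at 350 bp against 630 bp in wild-type. With a rank of 1704 of 1939, it was the weakest *gd7* region of the domain, whereas in wild-type its rank was 123 of 3013.

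Behind *tsh*, on the side towards *CG11629*, both genotypes had a series of regions that were weak in wild-type, and each one that was shared had a higher value in *gd7*. The wild-type values of the shared ones stood only 0.13 to 0.35 above the lowest *gd7* value. A larger fall would have left no listed *gd7* region to compare. At 21851620, the centre of a region in both lists, the value was 2.58 in *gd7* and 2.28 in wild-type. The pair centred at 21847700 in *gd7* and 21847560 in wild-type had 2.45 in *gd7* and 2.26 in wild-type. The pair centred at 21853335 in *gd7* and 21853545 in wild-type had 2.26 in *gd7* and 2.06 in wild-type. In these last 2 pairs the *gd7* centre lay outside the wild-type region, so the values belong to points 140 bp and 210 bp apart. The 3 differences, from 0.18 to 0.30, are all small next to that at the *tsh* start site, and they run the other way.

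Farther along, the region from 21868735 to 21869225 in *gd7* had 2.72, against 2.18 in wild-type, a difference of 0.55. In addition, *gd7* had 3 regions here with no wild-type region, with 2.77 from 21855750 to 21856415, 2.37 from 21871605 to 21871850 and 2.58 from 21876960 to 21877695. The wild-type list had 1 region with no *gd7* region, from 21843465 to 21844235, with 2.17. The stretch between *tsh* and *CG11629* thus held 7 regions in *gd7* and 5 in wild-type.

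The strongest CBP region of both domains, and the 7th strongest of the wild-type list, lay 1106 bp from the start site of *CG11629*, a gene of which no function is given here. It had 3.66 in *gd7* and 4.53 in wild-type, a difference of -0.87. This was the smallest decrease among the strong regions and did not reach 2-fold. It was also the strongest region of either domain in *gd7*, with a rank of 91 of 1939, and its length was 385 bp in *gd7* and 490 bp in wild-type.

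At *tio*, the wild-type list had 2 strong regions and the *gd7* list had 1 of them. The distal region, 4520 bp from the *tio* start site and centred at 22024555 in both lists, had 2.96 in *gd7* and 4.41 in wild-type, a difference of -1.45. Its rank was 462 of 1939 in *gd7* and 10 of 3013 in wild-type. The region nearer to the start site, 940 bp from it and from 22018710 to 22019445, had 3.81 in wild-type and was not listed in *gd7*. If it was not missed for its length, the *gd7* signal there was lower by more than 1.88, or 3.68-fold.

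**Figure D2:**
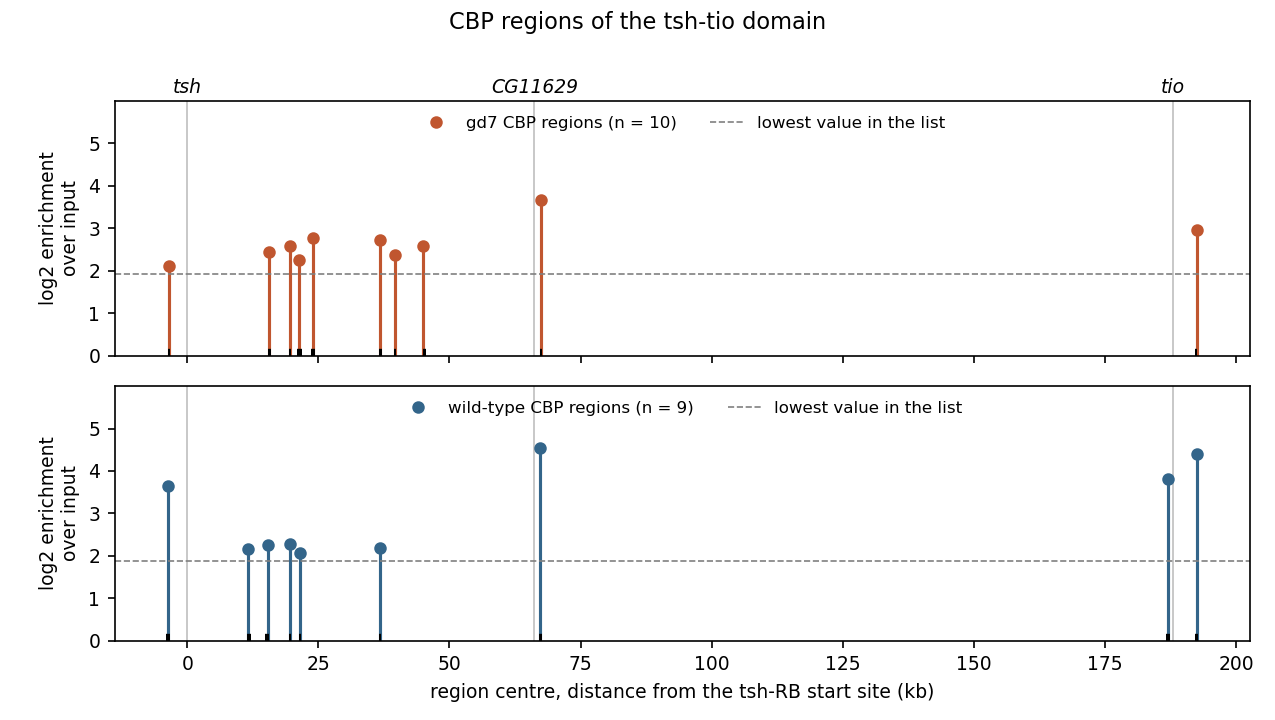
CBP regions of the *tsh*-*tio* domain in *gd7* (top) and wild-type (bottom), drawn as stems. The x axis is the distance of the region centre from the downstream *tsh* start site (transcript *tsh-RB*) in kb, and the y axis is the log2 enrichment over input; black bars, vertical lines and dashed lines mark region extents, start sites and the lowest listed value. The 4 tall wild-type stems (3.64 to 4.53) lie at *tsh*, *CG11629* and *tio*, and the weak wild-type stems lie between *tsh* and *CG11629*. No region is listed in the 119.7 kb between the wild-type regions at *CG11629* and *tio*.

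Over both domains, 13 of the 19 wild-type regions overlapped a *gd7* region by at least 1 bp (6 of 10 and 7 of 9), next to 40.4% of the whole wild-type list, and 6 of 19 overlapped none, next to 59.6%. Of the 21 *gd7* regions, 12 overlapped a wild-type region (5 of 11 and 7 of 10), next to 62.7% of the whole *gd7* list. In *elB*-*noc* the share of *gd7* regions with no wild-type region, 6 of 11, stood above the 37.3% of the list, and in *tsh*-*tio*, 3 of 10, below it. With regions this few, and most of the unshared ones less than 2-fold above the lowest value of the other list, these shares are given as counts only.

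Of the 13 shared regions, 5 were lower and 8 higher in *gd7*, where 46.8% and 53.2% of all 1217 shared regions were. At *noc*, *tsh* and *tio*, 3 of them fell by more than 2-fold in *gd7*, compared with 5.92% of the shared list, and none rose by that much, compared with 10.2%. The regions at *elB* and *tio* that had no *gd7* region also stood more than 2-fold above the lowest *gd7* value, as did 9.47% of all wild-type regions with no *gd7* region. No *gd7* region without a wild-type region stood that far above the lowest wild-type value, whereas 12.6% of such regions did over the whole list. The median difference was 0.16 in *elB*-*noc* and 0.18 in *tsh*-*tio*, against 0.06 over all shared regions, and single regions ranged from -1.60 to 1.00 and from -1.52 to 0.55. With centres within 200 bp as the rule for sharing, the region at *noc* was no longer paired, since its centres lay 245 bp apart, and the median of *tsh*-*tio* became -0.34.

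**Figure D3:**
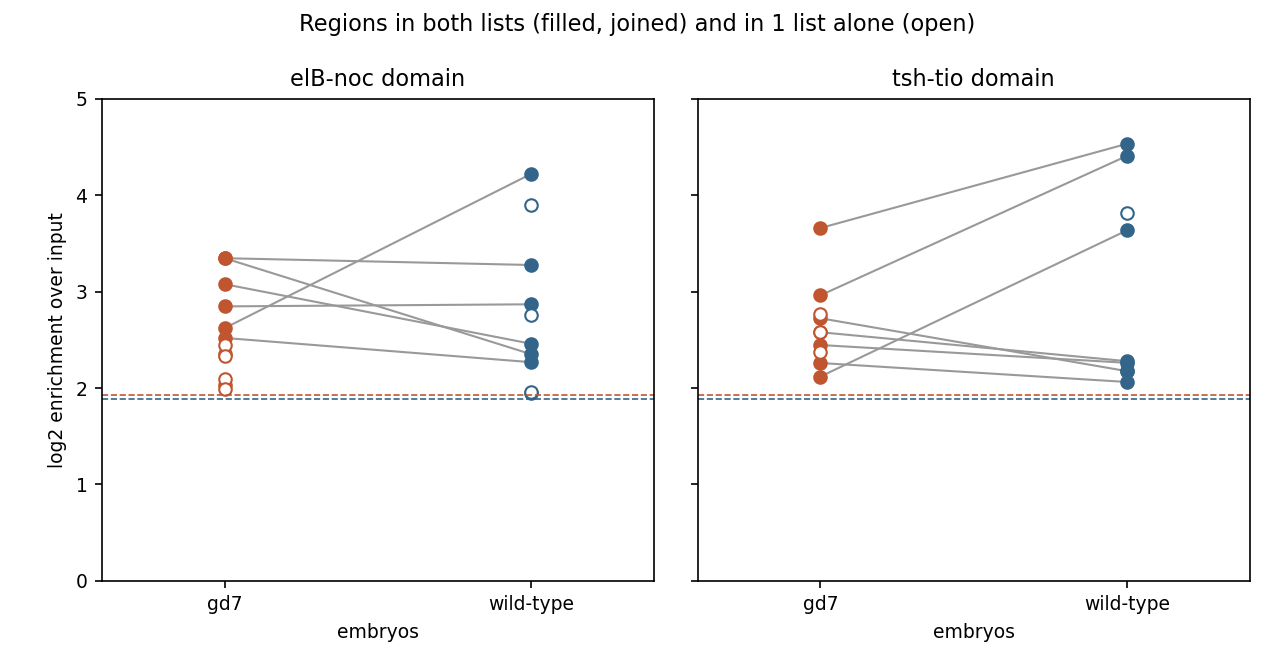
Log2 enrichment over input (y axis) of every region of the 2 domains in *gd7* (left column of each panel) and wild-type (right column). Filled points joined by a line overlap between the lists, open points are listed in that genotype alone, and dashed lines are the lowest listed values. The lines from the wild-type points at 3.64 and above all fall towards *gd7*, and those from wild-type points under 2.5 all rise towards *gd7*, where a fall of more than 0.53 would have left no listed region to join.

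Grouped by their wild-type strength, the shared regions gave the following values. All 4 shared regions with a wild-type value of at least 3.5 (*noc*, *tsh*, *CG11629* and the distal one at *tio*) were lower in *gd7*, with a median difference of -1.48. Of the 9 with a lower wild-type value, 8 were higher in *gd7* and 1 was lower, with a difference of -0.02, and their median was 0.25. The limit of 3.5 was chosen after these values were seen. Both groups are shaped by how they were formed, since the wild-type value that sorts the regions is also subtracted in the difference. In addition, a shared region needs a *gd7* value of at least 1.93, and 7 of the 9 weaker ones stood only 0.13 to 0.53 above it. A larger fall would have taken them off the *gd7* list, and 4 of the 13 weaker regions had none there. The whole list gave like values: among shared regions with a wild-type value of at least 3.5, 91.2% were lower in *gd7*, with a median of -0.88, and 18.1% of the strong regions had no *gd7* region. Among the shared others 58.7% were higher, with a median of 0.13, but 62.0% of the others had no *gd7* region. Of the 6 strong wild-type regions of the domains, 2 (at *elB* and *tio*) had no *gd7* region. In direction, the 4 shared ones went with most shared strong wild-type regions of the whole list. The decreases at *noc*, *tsh* and *tio* were larger than the median of that group, and that at *CG11629* equalled it within 0.01.

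Strength and distance from a start site ran together in these domains. The 5 wild-type regions within 1.5 kb of a start site all had 3.64 or more; of these, 3 were lower in *gd7* and 2 were not listed there. Of the 14 regions farther away, 13 had 3.28 or less, the exception being the distal region at *tio*. Among the farther ones that were shared, 8 of 10 were higher in *gd7*. Over the part of the wild-type list for which distances are held, 54.1% of shared regions within 1.5 kb of a start site were lower in *gd7*, and 68.9% of those farther away were higher. These shares too leave out the regions with no *gd7* region, which were 64.5% of those within 1.5 kb and 44.6% of those farther away, and 2 of 5 and 4 of 14 in these domains.

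Sorted by the *gd7* value instead, the whole list ran the opposite way. Of its shared *gd7* regions with at least 3, 76.9% were higher in *gd7*, with a median difference of 0.61, and of those under 3, 62.8% were lower, with a median of -0.19. The direction thus followed the genotype used for sorting. In the 2 domains, 3 *gd7* regions had at least 3, of which 2 were higher and 1 was lower in *gd7*, and of the 9 shared ones under 3, 5 were higher and 4 lower.

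**Figure D4:**
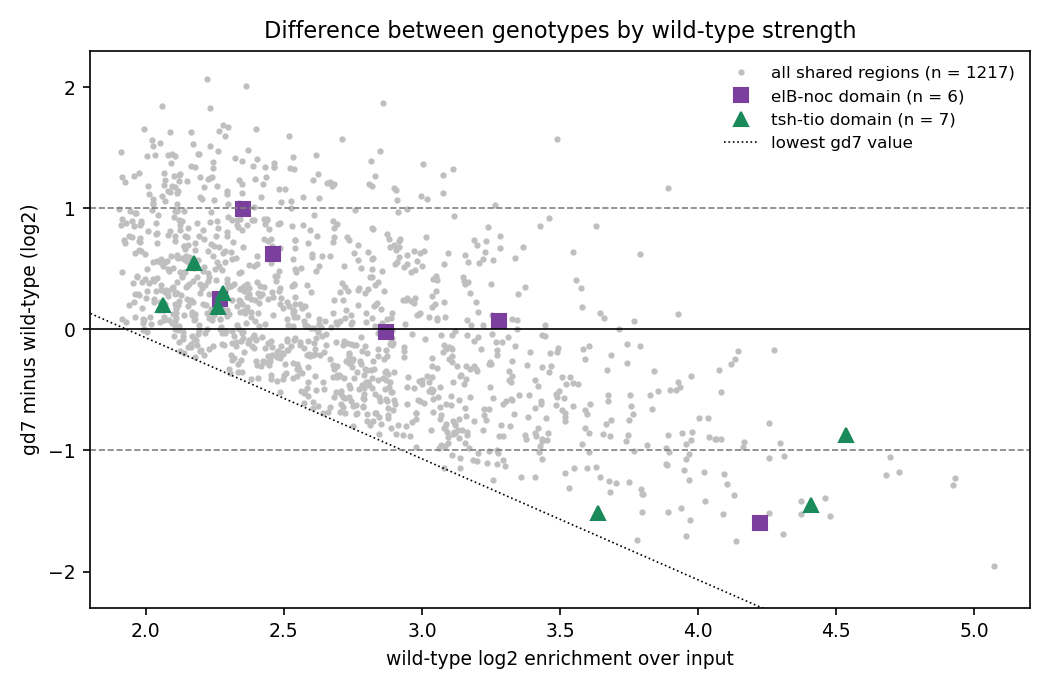
Difference between *gd7* and wild-type (y axis, log2) against the wild-type log2 enrichment over input (x axis) for all 1217 shared regions (grey) and for those of the *elB*-*noc* (squares, 6) and *tsh*-*tio* (triangles, 7) domains. Dashed lines mark 2-fold differences, and the dotted line is the lowest difference that a listed *gd7* region can give. The 4 strong members lie at -0.87 to -1.60 among mostly negative grey points, and the 9 others lie between -0.02 and 1.00. The dotted line leaves little room for lower values at most of these others, though not at those with wild-type values of 2.87 and 3.28.

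CBP regions were denser in both domains than along the arm. In *elB*-*noc* there were 91.7 regions per Mb in *gd7* and 83.3 in wild-type, and in *tsh*-*tio* 40.0 in *gd7* and 36.0 in wild-type. Over 2L as a whole there were 15.0 in *gd7* and 23.2 in wild-type. Since the windows were drawn around known regions, their density is a description and was not tested. While the *gd7* list as a whole held 0.644 times as many regions as the wild-type list, both domains held 1 more region in *gd7* than in wild-type.

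The spacing was uneven, with close groups separated by long gaps. In *elB*-*noc* the median distance between neighbouring centres was 3.94 kb in *gd7* and 5.53 kb in wild-type, and in *tsh*-*tio* it was 5.36 kb in *gd7* and 10.3 kb in wild-type. On 2L the medians were 13.2 kb in *gd7* and 17.7 kb in wild-type. The closest neighbours of the 2 domains were wild-type regions 840 bp apart, near *CG15283*. The longest gap in *elB*-*noc*, between *CG15283* and *noc*, was 37.9 kb in *gd7* and 42.7 kb in wild-type, and that in *tsh*-*tio*, between *CG11629* and *tio*, was 125.1 kb in *gd7* and 119.7 kb in wild-type. The longest gaps thus lay between the same genes in both genotypes. The gap in *tsh*-*tio* began at the shared region of *CG11629* in both lists, and in wild-type it ended at the region 940 bp from *tio*, which had no *gd7* counterpart.

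In *elB*-*noc*, 5 of the 6 shared wild-type regions overlapped a longer *gd7* region, and in *tsh*-*tio* 2 of 7 did, next to 47.1% of all shared regions. Of the 5 in *elB*-*noc*, 2 overlapped the same *gd7* region, of 1470 bp. Regions of at least 1 kb numbered 4 of 11 in *gd7* and 1 of 10 in wild-type in *elB*-*noc*, and none in *tsh*-*tio*, where the longest was 840 bp in *gd7* and 770 bp in wild-type. Over all arms, 13.6% of *gd7* and 6.80% of wild-type regions were that long, and the median length was 455 bp in *gd7* and 350 bp in wild-type. In all, CBP regions covered 8785 bp of *elB*-*noc* in *gd7* and 5670 bp in wild-type, and 5040 bp of *tsh*-*tio* in both. The centre was the same in both lists at 3 of the 13 shared regions, next to 14.5% of all shared regions. Positions in the lists fall on steps of 35 bp, which limits how finely a shift can be seen.

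**Figure D5:**
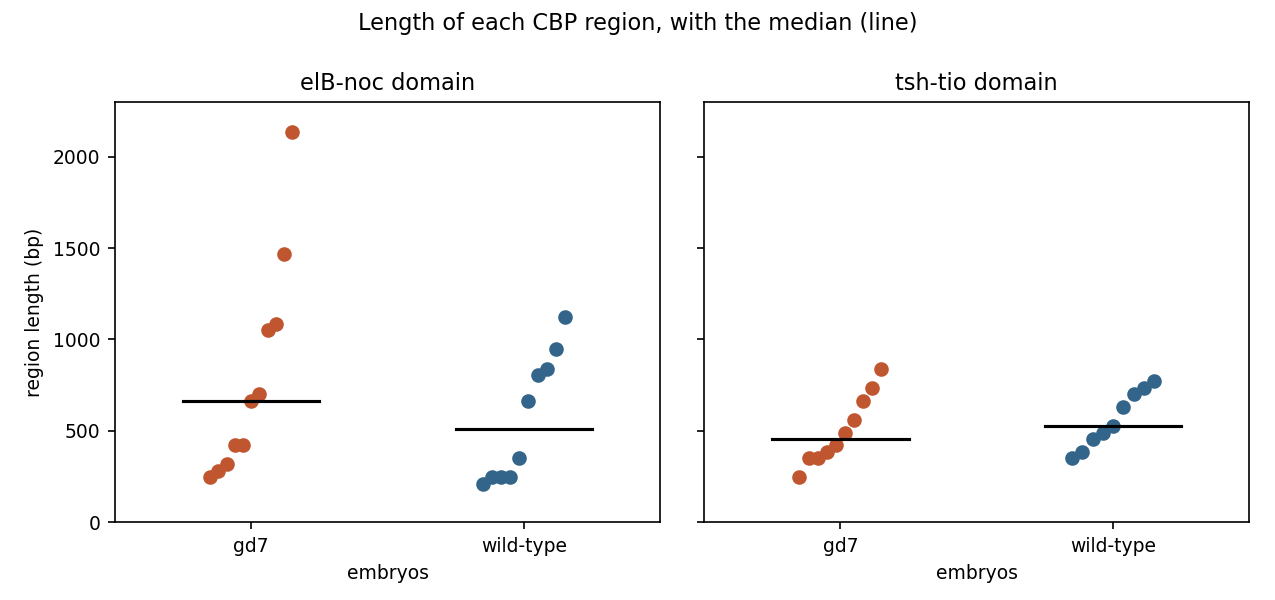
Length in bp (y axis) of each CBP region in *gd7* (left column of each panel) and wild-type (right column), for the *elB*-*noc* and *tsh*-*tio* domains, with the median as a line. In *elB*-*noc* the median is 665 bp in *gd7* and 508 bp in wild-type and the longest region, 2135 bp, is in *gd7*; in *tsh*-*tio* the medians are 455 bp in *gd7* and 525 bp in wild-type.

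The regions nearest to the limits of the domains show what the choice of window left out. Below *elB*, the nearest wild-type region outside had 2.16 and lay 44.3 kb from the limit, nearest to *Rab14*, and the nearest *gd7* region lay 137.6 kb away with 2.62. Above *noc*, the nearest regions outside were 793.8 kb away in *gd7*, with 1.95, and 186.2 kb away in wild-type, with 2.75. Below *tsh*, a region nearest to *CG31612* lay 4.49 kb outside in *gd7*, with 2.11, and 4.42 kb outside in wild-type, with 3.20, so that it too was lower in *gd7*. Above *tio* the nearest outside regions were over 100 kb away, with 2.91 in *gd7* and 2.33 in wild-type.

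Genes that act with these zinc finger genes were looked at in the same way, by the wild-type regions nearest to them. The list of 12 held the retinal determination genes *eya*, *so*, *dac* and *Optix*, the tracheal genes *salm*, *salr*, *kni*, *knrl* and *trh*, the Wnt ligand gene *wg*, the Hox cofactor gene *hth* and the trunk Hox gene *Antp*. It was drawn up with results of these data known. Apart from *eya*, each had a region, 22 in all, of which 18 were shared, next to 40.4% of the whole list. Of these, 13 were lower and 5 higher in *gd7*, with a median difference of -0.59, where 46.8% of all shared regions were lower. The decrease passed 2-fold at 7 and the increase at none, where 5.92% and 10.2% of all shared regions did. The regions are not spread evenly over the genes, since *hth* gave 6 of the 22 and *Antp* 5. Most of the 7 decreases beyond 2-fold were at *Antp*, and the others were at *so*, *trh* and *hth*. The 22 regions were also stronger than the list, with a median wild-type value of 3.04 against 2.40, and strong wild-type regions were mostly lower in *gd7* throughout.

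Among the largest decreases was that at *trh*, a master regulator of tracheal fate, with 2.25 in *gd7* and 3.96 in wild-type at a region 894 bp away from the gene's start. At *salm*, a zinc finger gene that also has a neighbouring paralogue, *salr*, a region 237 bp from the gene's start had 3.57 in *gd7* and 4.08 in wild-type, a smaller decrease than at *noc* or *tsh*. At *dac* the values were 2.87 in *gd7* and 3.74 in wild-type. These regions had, like those at the 4 zinc finger genes, high values in wild-type. At *so* and *knrl*, and at the shared region of *Optix*, CBP was also lower in *gd7*. At *kni* it was higher, with 2.67 in *gd7* and 2.31 in wild-type at a region 317 bp from the gene's start. The regions of *salr* and *wg* and a second one of *Optix*, with 2.79, 2.67 and 2.09 in wild-type, had no *gd7* region.

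*hth* resembled *tsh* in that CBP was lower close to its start site and higher at more distal regions in *gd7*. The list gave like values where distances are held. Of shared regions with at least 3.5 in wild-type and within 1.5 kb of a start site, 88.7% were lower in *gd7*. Of those under 3.5 and farther away, 74.4% were higher. These shares leave out regions with no *gd7* region. Of the 6 *hth* regions, the closest, 237 bp away, had 2.47 in *gd7* and 3.79 in wild-type. Regions 5567 bp and 11751 bp away had 3.12 and 3.52 in *gd7*, against 2.23 and 2.68 in wild-type. The region 2862 bp away differed little, with 3.34 in *gd7* and 3.49 in wild-type, and its *gd7* region also overlapped a weaker wild-type region; the last had no *gd7* region. At *Antp*, 4 of 5 regions were lower in *gd7* and all of them lay farther than 1.5 kb from the start site. The lower ones lay 1580 bp to 29262 bp away, and the strongest, at 29262 bp, had 2.39 in *gd7* and 4.14 in wild-type. The remaining region was higher, with 3.04 in *gd7* and 2.32 in wild-type, and was the farthest, at 32405 bp. A link between distance and direction was not tested.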

How the data were processed

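Each genotype has 1 deposited file, in which the authors list the regions bound by CBP. The authors aligned SOLiD reads to release 5 with Bioscope, computed a smoothed log2 ratio of ChIP to input and merged the top 5% of its values into regions no shorter than 200 bp, each with the mean of its 5 highest consecutive values. The lists were called separately and not normalized to each other. Deposited values lie a constant below the log2 enrichment. The constant, 1.93 in *gd7* and 1.88 in wild-type, was the median difference to the study's peak table (170 of 1939 and 1999 of 3013 regions matched, largest deviation 5.0e-06) and was added back to all regions. No number of reads per region is held, so the depth behind a value is unknown.

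Regions that overlapped by at least 1 bp were called shared; the difference is the highest overlapping *gd7* value minus the wild-type value, with a limit of 2-fold. Nearest genes and start sites came from the study's table: positions at which the listed distances met fixed the sites of *noc*, *tsh-RB*, *tio*, *Cpr35B*, *CG15283* and *CG11629*, while those of *elB* and *tsh-RA* have 2 possible places. Distances of *gd7* regions were computed from these sites. Counting was done in Python 3.11.15 with numpy 2.4.6 and pandas 2.3.3, tested on simulated regions, and plotted with matplotlib 3.10.9. With 1 library per genotype there is no p-value. The members, the partner list and the named genes (the 4 zinc finger genes, the nearest genes of their regions, the neighbours and the partner list) were chosen with earlier results of these data known. Alternatives changed the overlap rule, cut-off, class limit, constants, centring, direction of comparison and domain limits. Motifs in promoters, planned with RefSeq promoter sequences, were not analysed here.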

Additional observations from a re-analysis of the deposited data

How the results depend on the processing

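With 1 library per genotype no replicate can be left out. No paired analysis was possible because each genotype has 1 library. With only regions of log2 enrichment 2.5 or more, *elB*-*noc* kept 5 *gd7* and 5 wild-type regions and *tsh*-*tio* kept 6 *gd7* and 4 wild-type regions. At that cut-off in both lists, 3 *gd7* and 3 wild-type regions were shared in *elB*-*noc*, and 2 *gd7* and 2 wild-type regions in *tsh*-*tio*. With centres within 200 bp as the rule, 3 *gd7* and 3 wild-type regions of *elB*-*noc* were shared and 0 were more than 2-fold lower, because the centres at *noc* lie farther apart. Under the same rule the median difference of *tsh*-*tio* turned from 0.18 to -0.34, as the weak pair centred at 21853335 in *gd7* dropped out. The other alternatives (values as deposited, centring on all shared regions, counting per *gd7* region, a class limit of 1.5-fold, overlap of 0.5 of the shorter region, and limits moved by 20 kb) left the counts within 1.5 times those reported. The median was 0.07 to 0.16 in *elB*-*noc* under all settings run, and 0.13 to 0.18 in *tsh*-*tio* under the others. The shared differences of a domain ran from -1.60 to 1.00 and from -1.52 to 0.55, so medians of 6 and 7 regions are poorly fixed.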
